A study of Mus musculus with 14 samples.

Results

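The natriuretic peptide system of the mouse heart was followed through 7 genes: the peptide genes Nppa and Nppb, the proteases Corin and Furin that process the precursors, and the receptors Npr1, Npr2 and Npr3. The members were chosen by name, and their rows were taken from all 14 count tables, which each listed 51912 genes. All 7 had a row and passed the filter on low counts that left 15651 genes for testing. Gene expression was measured by RNA sequencing of poly(A)-selected RNA from hearts of C57BL/6J mice that were wild type (WT) or labelled as knockouts (KO) of Clk3, a kinase that phosphorylates splicing factors. Hearts came after a sham operation or after TAC, taken here as transverse aortic constriction, which narrows the aorta and loads the left ventricle with pressure. The series asks about the role of Clk3 in the growth of the heart under such load.

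The groups comprised 4 wild-type sham hearts (replicates 1 and 2 at 11 weeks of age, 3 and 4 at 10 weeks), 4 knockout sham hearts (likewise 11 weeks for 1 and 2 and 10 weeks for 3 and 4), 2 wild-type TAC hearts and 4 knockout TAC hearts (all 10 weeks). The labels give no duration of TAC, no sex and no account of how the knockout was made. Nor do they tie libraries to separate animals. The p-values therefore describe the spread among the libraries, part of which may be technical. Between 11385818 and 20369637 reads per library were counted in genes. Within a group, no pair of libraries agreed within sampling noise.

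The targeted gene was examined first. Clk3 stood at 73.2, 92.5, 77.2 and 96.0 CPM (gene counts rescaled so that libraries of different depth compare) in wild-type sham, at 67.4, 64.8, 62.8 and 66.9 in knockout sham, at 54.2 and 92.3 in wild-type TAC, and at 64.9, 54.9, 50.8 and 61.4 in knockout TAC. The Clk3 level of wild-type TAC 1 lay within the knockout range and below every other wild-type library. The gene model Gm8730 had 57.4 to 67.1 CPM in all 8 knockout hearts and 1.26 to 1.63 CPM in 5 of the 6 wild-type libraries. In the library labelled wild-type TAC 1 it was at 66.8 CPM. For both genes this library therefore stood with the knockouts, and the wild-type TAC and genotype differences of the members after TAC are also given without it. Such a fit leaves 1 wild-type TAC library, which is assumed to vary like the other groups, so its p-values rest on the spread of those groups. The same holds without wild-type TAC 2. The share of reads in no annotated feature was 17.1% to 19.0% in knockout sham and 12.3% to 14.3% in knockout TAC, which did not overlap. It was 14.3% to 17.6% in wild-type sham, and the wild-type TAC libraries were at 10.7% (replicate 1) and 14.9% (replicate 2, inside the sham range). Its part in the results was not tested.

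Nppa encodes the precursor of atrial natriuretic peptide (ANP) and Nppb that of B-type natriuretic peptide (BNP). Both are secreted by cardiac muscle cells when the wall is stretched, and their transcripts are long-used markers of cardiac overload. Corin, a transmembrane protease of cardiac muscle cells, cuts pro-ANP, and Furin, a convertase of the secretory pathway, cuts pro-BNP and activates other precursors. Npr1 binds ANP and BNP and makes cyclic GMP, which relaxes vessels and promotes salt excretion. Npr2 is the cyclase receptor for the C-type peptide, and Npr3 has no cyclase domain and clears the peptides from the circulation.

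Nppa and Nppb lie side by side on the forward strand of mouse chromosome 4 (GRCm38), Nppb (ENSMUSG00000029019.8) at chr4:147985788-147987205 and Nppa (ENSMUSG00000041616.9) at chr4:148000722-148002079, so that their starts are 14.9 kb apart in the GENCODE annotation. RefSeq places the Nppb start 112 bases further downstream, at position 147985900. Stretches before the RefSeq starts are shown because these 2 genes moved with TAC and hold known types of cardiac regulatory motif. They come from the RefSeq annotation of GRCm38.p6 and run 5′ to 3′ on the forward strand. Capitals mark the motif matches named after them. For Nppa all 250 bases before the start are given (chr4:148000472-148000721). For Nppb only 27 bases with its GGAATG and GATAA matches are given (chr4:147985795-147985821). This stretch lies upstream of the RefSeq start and inside the first exon of the GENCODE model.
Nppa: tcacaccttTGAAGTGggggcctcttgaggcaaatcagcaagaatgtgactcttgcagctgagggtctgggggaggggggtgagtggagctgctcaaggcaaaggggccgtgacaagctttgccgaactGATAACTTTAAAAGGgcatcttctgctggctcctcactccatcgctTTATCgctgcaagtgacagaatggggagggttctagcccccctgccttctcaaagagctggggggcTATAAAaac
Nppb: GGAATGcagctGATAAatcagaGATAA

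Motifs were searched on both strands of 250-base windows, and distances are from the RefSeq start. GATAA, a core bound by GATA factors, occurred 121 to 117 bases upstream of the Nppa start and, as TTATC, 75 to 71 bases upstream. In the Nppb window it occurred at 94 to 90 and at 83 to 79 bases upstream. Directly after the first Nppa GATAA lay CTTTAAAAGG, which matches the CArG box of serum response factor with 1 mismatch allowed in its outer bases. TNAAGTG, the core of the NKX site, matched in Nppa 241 to 235 bases upstream, and GGAATG, the TEAD core, in Nppb 105 to 100 bases upstream. The TATA box letters TATAAA lay 9 to 4 bases upstream in Nppa and 31 to 26 in Nppb.

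Such matches were common. All 7 members had a window among the 32851 promoter windows of the annotation. GATAA was in 22.6% of these windows and, among the members, in those of Nppa and Nppb. The CArG box with 1 mismatch was in 12.4% of windows and in those of Nppa, Corin and Furin, while the exact box was in 1.47% and in no member's. TATAAA was in 12.4% of windows (Nppa, Nppb and Furin), GGAATG in 12.6% (Nppb) and TNAAGTG in 10.1% (Nppa and Furin). Each match is a description of letters in a window.

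Levels between genes were compared as CPM per kilobase of exon. In wild-type sham hearts Nppb was at 253 ± 53.8 and Nppa at 188 ± 59.2 (SD, n = 4), and their libraries overlapped. Corin followed at 55.0 ± 5.48, Npr2 at 19.9 ± 2.42, Furin at 11.2 ± 1.77, Npr1 at 10.4 ± 1.70 and Npr3 at 3.29 ± 2.38. Libraries of Furin and Npr1 overlapped, whereas those of Corin and Npr2 lay apart from their neighbours in this order. Per kilobase of coding sequence Furin (26.2) was at the level of Npr2 (26.5). The untranslated parts of Furin held 35.1% to 47.9% of its counts in these hearts.

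After TAC the order of the peptides was Nppa before Nppb, at 2150 ± 85.4 and 858 ± 38.5 CPM per kilobase in wild type (SD, n = 2) with no overlap. In knockout hearts these levels were 976 ± 249 and 732 ± 264 (SD, n = 4), with overlap. Among 13395 protein-coding genes ranked per length, Nppa moved from ranks 128 to 358 in wild-type sham libraries to rank 9 in both wild-type TAC libraries. In knockout TAC libraries it held ranks 10 to 28. Nppb was ranked 100 to 159 in wild-type sham, 24 in both wild-type TAC libraries and 20 to 52 in knockout TAC.

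Nppa had the largest change of the 7 genes after TAC in both genotypes. Its level was 104, 139, 192 and 217 CPM in wild-type sham and 1912 and 1808 CPM in wild-type TAC. In knockout hearts it was 195, 162, 235 and 118 CPM after sham surgery and 909, 640, 1119 and 710 CPM after TAC. Every TAC library lay above every sham library of its genotype. The rise was 11.4-fold in wild type (log2 3.51 ± 0.27 SE, 95% interval 2.93 to 4.09, adjusted p = 1.91e-06 by the edgeR quasi-likelihood test with Benjamini-Hochberg adjustment). It was 4.75-fold in knockout hearts (log2 2.25 ± 0.24 SE, interval 1.74 to 2.76, adjusted p = 0.000298). Without wild-type TAC 1 the wild-type rise was 3.47 on the log2 scale (adjusted p = 3.79e-05).

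Nppb rose after TAC in both genotypes too. It was at 198, 166, 257 and 169 CPM in wild-type sham and at 691 and 649 CPM in wild-type TAC. The knockout sham libraries were at 216, 141, 268 and 328 CPM and the knockout TAC libraries at 864, 532, 382 and 507 CPM. Here too sham and TAC libraries did not overlap in either genotype, although knockout TAC 3 (382 CPM) came close to knockout sham 4 (328 CPM). Nppb was 3.39-fold higher after TAC in wild type (log2 1.76 ± 0.29 SE, adjusted p = 0.000965) and 2.4-fold higher in knockout hearts (log2 1.26 ± 0.25 SE, adjusted p = 0.00535). The wild-type rise without wild-type TAC 1 was 1.72 on the log2 scale (adjusted p = 0.0166). When only 10-week libraries entered, the knockout rise was 0.94 and no longer passed the threshold (adjusted p = 0.140), in a fit that called 10 genes higher and 5 lower in all.

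**Figure D1:**
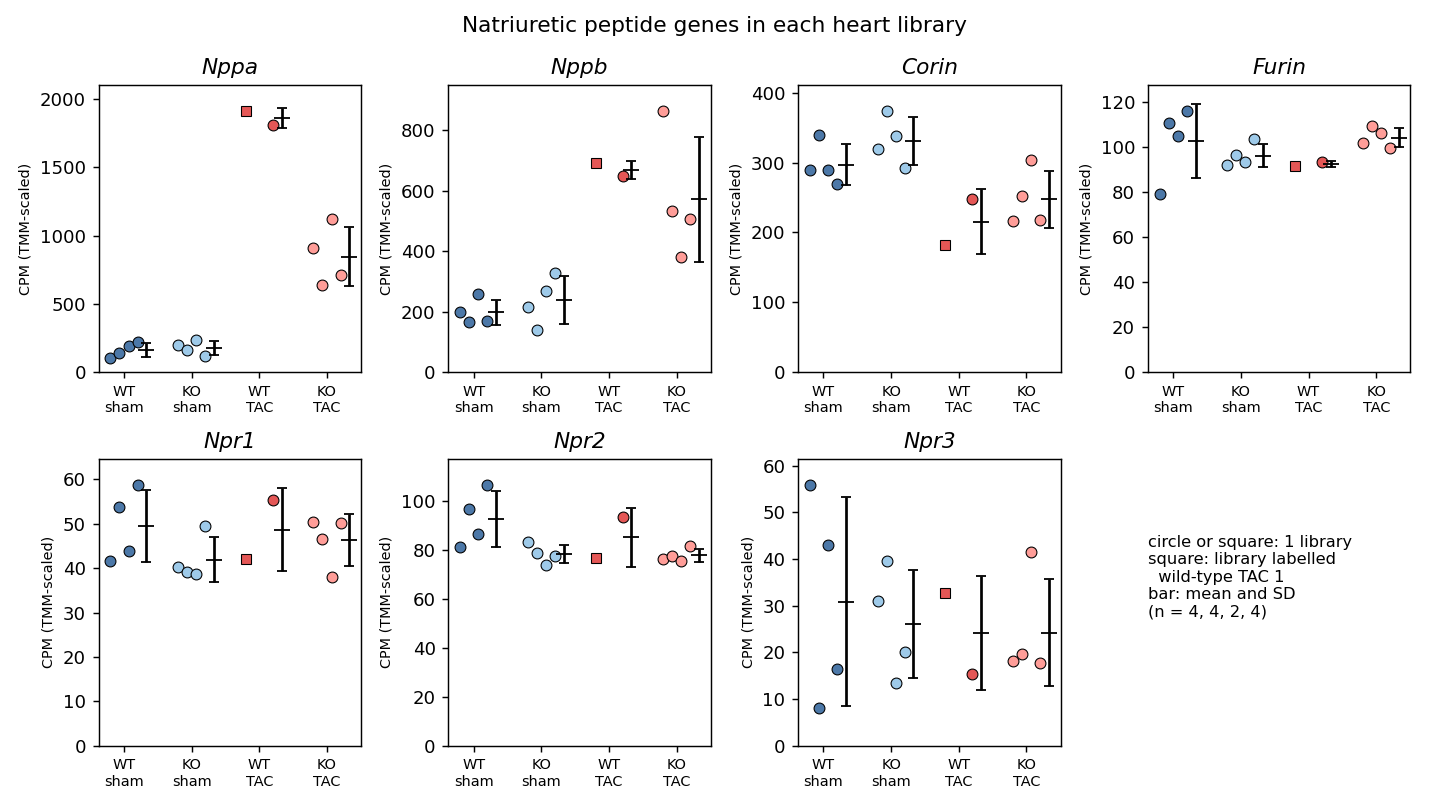
Level of each of the 7 genes in each of the 14 libraries, in CPM on TMM-scaled library sizes (vertical axes from 0), by group, with the mean and SD beside the points (n = 4, 4, 2 and 4). The square is the library labelled wild-type TAC 1. Nppa and Nppb stand above all sham libraries after TAC, and Npr3 varies as widely within groups as between them.

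In the wild-type TAC comparison 2 of the 7 members were called, Nppa and Nppb, beside 12.2% of all genes tested. In the knockout TAC comparison 3 of 7 were called, Nppa and Nppb higher and Corin lower, beside 13.0% of all genes. The median log2 difference over the 7 members was −0.12 in wild type and 0.11 in knockout hearts, beside 0.00 and −0.01 over all genes tested.

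In sham hearts Nppa and Nppb did not differ detectably between genotypes. Nppa was at 163 ± 51.2 CPM in wild type and 178 ± 49.7 in knockout hearts (SD, n = 4 each; log2 difference 0.12, interval −0.37 to 0.61, adjusted p = 0.816). Nppb was at 198 ± 42.0 and 238 ± 79.4 CPM (log2 difference 0.27, interval −0.25 to 0.79, adjusted p = 0.587). None of the 7 members was called by edgeR or by DESeq2 in this comparison. Here edgeR called 0.888% of all genes, and DESeq2 called 320 higher and 268 lower of 29789. At an unadjusted p under 0.05 there was 1, Npr2, beside 18% of all genes tested.

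After TAC, Nppa was 2.20-fold lower in knockout than in wild-type hearts, at 844 ± 216 against 1860 ± 73.8 CPM (SD, n = 4 and 2). Under the labels as given, the highest knockout library (1119 CPM) lay below the lower wild-type library (1808 CPM). Wild-type TAC 1, which stood with the knockouts for Clk3 and Gm8730, had the highest level of all, 1912 CPM. Counted among the knockouts, it would carry their range past wild-type TAC 2 (1808 CPM), so this separation depends on its label. The log2 difference was −1.14 ± 0.27 SE (interval −1.71 to −0.57) with an adjusted p of 0.0478, close to the threshold. It was the 1 member called of 7, in a comparison that called 1.48% of all genes. Nppb, at 571 ± 206 against 670 ± 30.1 CPM, had a log2 difference of −0.23 (interval −0.86 to 0.39, adjusted p = 0.789), and its groups overlapped. The Nppb difference was −0.18 without wild-type TAC 1 (adjusted p = 0.880).

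The size of the Nppa difference after TAC was −1.03 to −1.31 in all 14 alternative fits, but the call was lost in 7 of them. Without the library labelled wild-type TAC 1 the difference was −1.10 (adjusted p = 0.219). The call was also lost without wild-type TAC 2 (adjusted p = 0.0902) and without knockout TAC 1 (0.0816), 2 (0.142) or 4 (0.0802). It was lost as well with 10-week libraries only (0.0618) and with only the TAC groups in the fit (0.0527).

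The difference between the TAC effects of both genotypes was tested directly as an interaction. For Nppa it was −1.26 ± 0.36 SE on the log2 scale (interval −2.02 to −0.50), with an unadjusted p of 0.00287 and an adjusted p of 0.428. No member passed by edgeR or DESeq2. In this test edgeR called 0.0192% of all genes, and DESeq2 called 11 higher and 26 lower of 29789. Nppa was the 1 member with an unadjusted p under 0.05, beside 6.53% of all genes. It was −1.22 for Nppa without wild-type TAC 1 (adjusted p = 0.755). With no filter on low counts the Nppa interaction passed (−1.24, adjusted p = 0.00103), in a fit that called 13 genes higher and 53 lower of 29798. Over all 21 alternative fits its adjusted p ran from 0.00103 to 0.801. For Nppb the interaction was −0.50 (interval −1.31 to 0.31, adjusted p = 0.877).

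**Figure D2:**
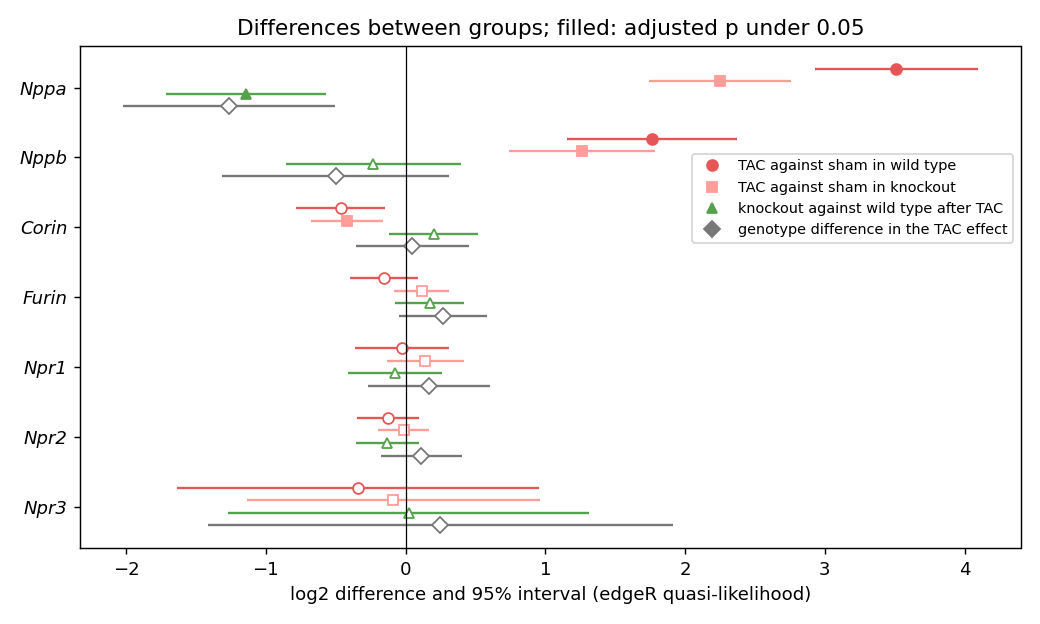
Log2 differences with 95% intervals for the 7 genes in 4 comparisons, from edgeR, with filled symbols where the adjusted p is under 0.05. Filled symbols are those of Nppa in 3 comparisons, Nppb in both TAC comparisons and Corin after TAC in knockout hearts, and the Npr3 intervals are the widest.

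Within each library the ratio of Nppa to Nppb counts does not depend on the scaling. It was 0.525, 0.835, 0.748 and 1.28 in wild-type sham and 2.77 and 2.79 in wild-type TAC. In knockout hearts it was 0.906, 1.15, 0.877 and 0.361 after sham surgery and 1.05, 1.20, 2.93 and 1.40 after TAC. Both wild-type TAC libraries and knockout TAC 3 thus had almost 3 times as many Nppa as Nppb counts, and the other knockout TAC libraries had between 1.05 and 1.40 times as many.

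On the log2 scale the mean ratio was 1.79 higher after TAC in wild type (exact two-sided permutation test, p = 0.0667, the smallest that 2 against 4 libraries allow). It was 0.99 higher in knockout hearts (exact permutation p = 0.0571, where 0.0286 was the smallest possible). Between genotypes it was 0.88 lower in knockout hearts after TAC (exact permutation p = 0.333). In sham hearts the difference was −0.09 (exact permutation p = 0.886). Adjusted over the 8 ratio comparisons these exact p-values were 0.267, 0.267, 0.889 and 1. None passed, but at these group sizes no outcome could have passed after this adjustment. The adjusted values therefore decide nothing about the ratio. Leaving out wild-type TAC 1 gave a difference of 1.79 after TAC in wild type and −0.89 between genotypes after TAC.

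**Figure D3:**
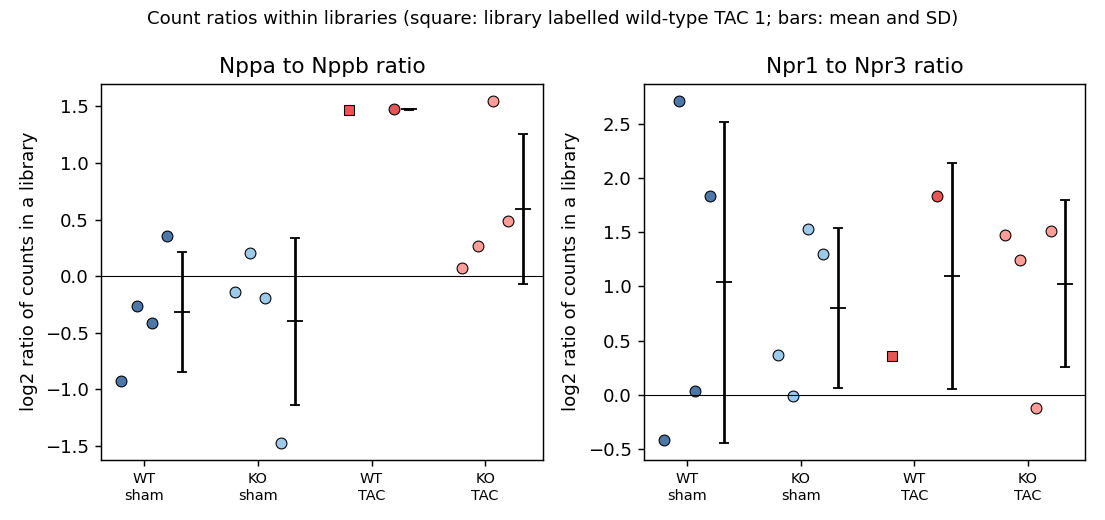
Log2 ratio of Nppa to Nppb counts (left) and of Npr1 to Npr3 counts (right) in each library, by group, with the mean and SD (n = 4, 4, 2 and 4). The square is the library labelled wild-type TAC 1. The Nppa to Nppb ratio is highest in knockout TAC 3 and both wild-type TAC libraries, and the Npr1 to Npr3 ratio spreads widely within every group.

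A gene on the opposite strand, Gm13054 (ENSMUSG00000086806.1), shares 532 exonic bases with Nppa. It had 6 to 11 counts in each sham library, 67 and 61 in wild-type TAC and 24, 31, 52 and 47 in knockout TAC. These were 0.244% to 0.602% of the Nppa counts of the same library. No source used here gives the strand setting of the counting, so reads of Gm13054 and Nppa cannot be told apart with certainty. The other antisense genes that share exonic bases with a member (Npr1, Npr2, Corin and Furin) had at most 5 counts in any library.

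Nppa is also abundant in atria, so atrial markers were read beside it. Of the 6 atrial markers, Bmp10 was under 0.5 CPM in every library of every group, and Sln and Myl7 were under 0.5 CPM in every TAC library. In sham libraries Sln reached at most 0.55 CPM and Myl7 at most 1.0 CPM, both in wild-type sham 1. The summed CPM of the list was 11.0 to 22.8 in wild-type sham, 11.3 to 12.7 in knockout sham, 27.9 and 36.4 in wild-type TAC 1 and 2 and 12.8 to 21.6 in knockout TAC. Of the 3 that could be tested, Dkk3 rose after TAC, from 5.54 ± 4.90 to 21.2 ± 5.44 CPM in wild type and from 2.59 ± 0.89 to 7.27 ± 2.45 CPM in knockout hearts. The ventricular markers Myl2, Myl3 and Irx4 summed to 3795 to 5749 CPM in all libraries, and none of them was called after TAC.

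Some markers of fibroblasts and macrophages also rose with TAC. The 6 fibroblast markers summed to 822 to 1166 CPM in wild-type sham, 860 to 959 in knockout sham, 1688 and 1413 in wild-type TAC 1 and 2 and 1026 to 1172 in knockout TAC. After TAC 2 of them rose in wild type (Lum and Col1a1) and 1 in knockout hearts (Col1a1), beside 12.2% and 13.0% of all genes called. The other fibroblast markers were not called after TAC. The 5 macrophage markers summed to 99.9 to 120 CPM in wild-type sham and 76.0 to 102 in knockout sham. After TAC they summed to 175 and 138 CPM in wild-type TAC 1 and 2 and 110 to 143 in knockout hearts. Of these 5 markers, 2 were called higher after TAC in wild type and 3 in knockout hearts. Of the 6 markers of all myocytes (Tnnt2, Tnni3, Actc1, Ryr2, Mybpc3 and Myh6), 1 was called lower after TAC in each genotype and none higher. The mean of Ryr2 went from 1973 to 1434 CPM in wild type and from 2427 to 1820 CPM in knockout hearts. Those of Actc1 and Mybpc3 were higher after TAC in both genotypes. No endothelial, endocardial, smooth muscle or red blood cell marker was called after TAC in wild type. In knockout hearts 1 of 6 endothelial markers was called higher, and no endocardial, smooth muscle or red blood cell marker was called. The part of these markers in the member results was not tested. In RNA of a tissue with many cell types, fewer cells of a type and less RNA per cell cannot be told apart.

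Among the processing proteases, Corin (ENSMUSG00000005220.10, chr5:72300025-72504473, reverse strand) was lower after TAC in knockout hearts. Its level was 319, 374, 338 and 292 CPM in knockout sham and 216, 253, 303 and 218 CPM in knockout TAC. It fell by 0.42 ± 0.12 SE on the log2 scale (1.33-fold, adjusted p = 0.0351), with knockout TAC 3 inside the sham range. In wild type it was 290, 339, 290 and 270 CPM after sham surgery and 182 and 248 CPM after TAC. These groups did not overlap, and the log2 difference of −0.46 ± 0.15 SE (interval −0.79 to −0.14) missed the threshold in edgeR (adjusted p = 0.0567) and passed it in DESeq2 (adjusted p = 0.0265).

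The Corin result in knockout hearts had the same sign in all 16 alternative fits and was called in 7. It lost the call without knockout sham 1, 2 or 3 or without knockout TAC 1, 2 or 4, one at a time, with adjusted p from 0.0681 to 0.119. It also lost it with age as a covariate (−0.34, adjusted p = 0.163), with 10-week libraries only (−0.35, 0.288) and with coding counts only (−0.46, 0.0567). In wild type Corin was called in 5 of 14 alternative fits. Without wild-type TAC 1 the wild-type difference was −0.26 (adjusted p = 0.519), and without wild-type TAC 2 it was −0.70 (0.0204). Genotypes did not differ detectably in Corin, at 297 ± 29.6 and 331 ± 34.3 CPM in sham hearts (adjusted p = 0.529) and 215 ± 46.7 and 248 ± 40.9 CPM after TAC (adjusted p = 0.579). The log2 difference between genotypes after TAC was 0.20, and −0.0035 without wild-type TAC 1 (adjusted p = 0.996).

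Furin (ENSMUSG00000030530.15, chr7:80388585-80405436, reverse strand) held within a 1.46-fold range over all 14 libraries. It was at 79.1, 111, 105 and 116 CPM in wild-type sham, 91.9, 96.1, 93.1 and 103 in knockout sham, 91.3 and 93.2 in wild-type TAC and 102, 109, 106 and 99.3 in knockout TAC. The knockout TAC libraries all lay above both wild-type TAC libraries, but the log2 difference of 0.17 (interval −0.07 to 0.42) did not pass (adjusted p = 0.528; 0.16 without wild-type TAC 1, adjusted p = 0.712). After TAC the log2 difference was −0.15 in wild type (adjusted p = 0.432; −0.14 without wild-type TAC 1, adjusted p = 0.722) and 0.11 in knockout hearts (adjusted p = 0.439). Without wild-type sham 1, the lowest sham library, the wild-type difference was −0.26 and was called (adjusted p = 0.0359).

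The receptor genes differed in how much they varied. Npr1 (ENSMUSG00000027931.12, chr3:90450591-90465866, reverse strand) was at 41.7, 53.8, 43.8 and 58.8 CPM in wild-type sham and 42.1 and 55.3 in wild-type TAC. Knockout hearts held 40.2, 39.2, 38.8 and 49.5 CPM after sham surgery and 50.4, 46.6, 38.0 and 50.3 after TAC. All groups overlapped. The log2 difference after TAC was −0.03 in wild type (interval −0.36 to 0.31, adjusted p = 0.938) and 0.14 in knockout hearts (interval −0.14 to 0.42, adjusted p = 0.498). Without wild-type TAC 1 the wild-type difference was 0.16 (adjusted p = 0.760), and that between genotypes after TAC went from −0.07 to −0.26 (adjusted p = 0.613).

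Npr2 (ENSMUSG00000028469.15, chr4:43631935-43651244, forward strand) was the most abundant receptor transcript per length in every group. It was at 81.2, 96.7, 86.4 and 107 CPM in wild-type sham and at 83.1, 78.8, 74.1 and 77.7 CPM in knockout sham. Wild-type TAC libraries were at 76.6 and 93.7 CPM, and knockout TAC libraries at 76.2, 77.7, 75.6 and 81.8. The knockout sham mean was lower than the wild-type sham mean by a log2 difference of −0.24 ± 0.09 SE, which did not pass (interval −0.42 to −0.06, unadjusted p = 0.0120, adjusted p = 0.152). After TAC it differed from sham by −0.12 in wild type (adjusted p = 0.501) and −0.01 in knockout hearts (adjusted p = 0.950). The wild-type difference was 0.01 without wild-type TAC 1 (adjusted p = 0.974), and that between genotypes after TAC went from −0.13 to −0.27 (adjusted p = 0.391).

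Npr3 (ENSMUSG00000022206.6, chr15:11839896-11907287, reverse strand) varied 6.83-fold between libraries, and all its groups overlapped. Wild-type sham hearts alone spanned the whole range, at 55.9, 8.18, 43.0 and 16.5 CPM. Knockout sham hearts were at 31.1, 39.6, 13.4 and 20.1 CPM, wild-type TAC hearts at 32.8 and 15.5, and knockout TAC hearts at 18.2, 19.7, 41.4 and 17.6. The coefficient of variation within groups was 44.6% to 72.3%, against 12.2% to 19.2% for Npr1 and 3.60% to 14.2% for Npr2. These levels rest on 175 to 785 Npr3 counts per library. Between 70.6% and 84.5% of Npr3 counts fell in its untranslated parts.

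This spread limits what could be detected for the clearance receptor. The log2 difference after TAC was −0.34 in wild type (interval −1.63 to 0.96, adjusted p = 0.776) and −0.09 in knockout hearts (interval −1.14 to 0.96, adjusted p = 0.929). Both intervals include changes of almost 2-fold in either direction. Without wild-type TAC 1 the wild-type difference was −0.97 (adjusted p = 0.631), and that between genotypes after TAC went from 0.02 to 0.66 (adjusted p = 0.783). The ratio of Npr1 to Npr3 counts ran from 0.746 to 6.58 over the wild-type sham libraries. None of the 4 comparisons of this ratio passed (exact two-sided permutation tests, p = 0.80 to 1, adjusted p = 1 in each). At these group sizes none could have passed after the adjustment.

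Genes with the pattern most like that of Npr3 were sought among 13300 named genes, by the root mean square difference of log2 CPM after each gene was centred on its mean over the 14 libraries. The closest were Tmem108 (0.32), Smoc1 (0.36), Cdh11 (0.37), Gpm6a (0.39) and Prr15 (0.40), where Npr3 itself had a spread of 0.75. Tmem108 had 4.92, 0.701, 3.89 and 2.00 CPM in wild-type sham, so it too was highest in wild-type sham 1 and lowest in wild-type sham 2. Tmem108 and Cdh11 are among the 4 endocardial markers, of which Cytl1 held rank 21 and Nfatc1 rank 9209. Of the general endothelial markers the closest was Emcn, at rank 1892, and of the fibroblast markers Dcn, at rank 188. The lists were chosen with earlier results of these data known, so these ranks are a description and no independent support. The summed endocardial markers ranged from 27 to 59.3 CPM over the libraries, and their part in the Npr3 spread was not tested.

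**Figure D4:**
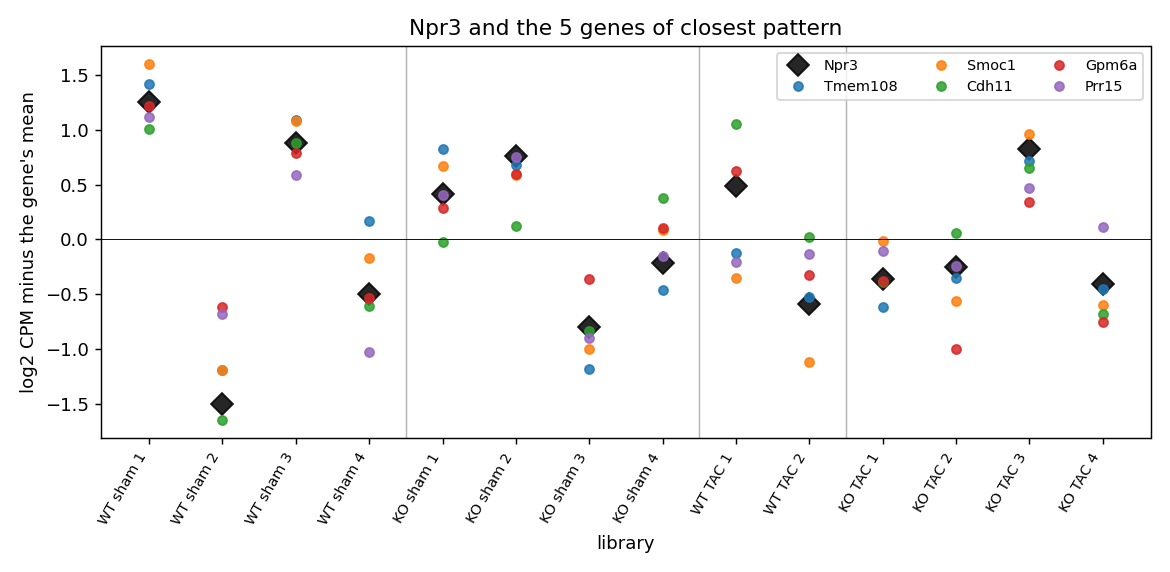
Npr3 (black diamonds) and the 5 genes of closest pattern (coloured points) in the 14 libraries, as log2 CPM minus each gene's mean over the libraries. Vertical lines separate the groups, and the libraries of a group have no order. The genes are high together in wild-type sham 1 and 3 and in knockout TAC 3, and low together in wild-type sham 2.

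By the same measure the genes most like Nppa included Gdf15 (0.57), Ltbp2 (0.58), Lrp8 (0.61) and Postn (0.62), where Nppa had a spread of 1.43. Nppb held rank 48 (0.85). The genes most like Nppb were Tnfrsf12a (0.25), Rcan1 (0.26), Abra (0.30), Ccn2 (0.33) and St8sia1 (0.36), where Nppb had a spread of 0.82. Nppa held rank 7409 in that order, at the same difference of 0.85. None of the genes named for one peptide gene was among those named for the other. This measure also counts how widely a gene varies, and Nppa had the larger spread of the peptide genes. The rank of Nppa and the lack of shared names therefore cannot show whether the peptide genes rose and fell together. These likenesses are over 14 libraries that share the sham and TAC groups, and are descriptions.

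Other genes of the pathway were taken from a list of 25, of which 22 could be tested. After TAC in wild type none was higher and 3 were lower, and in knockout hearts 1 was higher and 3 were lower, beside 12.2% and 13.0% of all genes called. The list's median log2 difference was −0.08 and 0.01. Mme, the neprilysin that degrades natriuretic peptides, fell in both genotypes. It was at 17.3, 14.6, 17.5 and 16.1 CPM in wild-type sham and at 8.21 and 8.67 in wild-type TAC. In knockout hearts it was at 16.9, 17.0, 16.6 and 18.2 CPM after sham surgery and at 10.5, 13.1, 10.2 and 11.4 after TAC.

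No Mme library of a TAC group reached the sham range of its genotype. The log2 difference was −0.95 ± 0.12 SE in wild type (adjusted p = 0.000176) and −0.61 ± 0.10 SE in knockout hearts (adjusted p = 0.00197). The wild-type call was kept in all 14 alternative fits, with −0.91 and an adjusted p of 0.00811 without wild-type TAC 1. The knockout call was kept in 15 of 16 and lost with 10-week libraries only (−0.63, adjusted p = 0.0685). The difference between genotypes in the effect of TAC on Mme was 0.34, with an unadjusted p of 0.0434 and an adjusted p of 0.744.

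Rgs2, a regulator of G protein signalling that cyclic GMP-dependent kinase activates, fell from 56.8 ± 10.8 to 23.3 ± 2.09 CPM in wild type (log2 −1.28, adjusted p = 0.0137) and from 57.0 ± 15.9 to 29.95 ± 11.9 CPM in knockout hearts (−0.91, adjusted p = 0.0238). The phosphodiesterase gene Pde3a, whose enzyme cyclic GMP inhibits, fell from 170 ± 17.0 to 132 ± 6.21 CPM in wild type (−0.37, adjusted p = 0.0275) and from 196 ± 18.2 to 158 ± 8.04 CPM in knockout hearts (−0.31, adjusted p = 0.0246). Vasp, a substrate of cyclic GMP-dependent kinase, rose from 35.8 ± 4.26 to 45.8 ± 5.75 CPM in knockout hearts (0.36, adjusted p = 0.0433). The Rgs2 call in wild type was lost without wild-type TAC 1 (−1.19, adjusted p = 0.156). Pde3a in wild type was called in 5 of 14 alternative fits and not without wild-type TAC 1 (−0.32, adjusted p = 0.241). In knockout hearts Pde3a was called in 8, Vasp in 7 and Rgs2 in 9 of 16.

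Nppc, the gene of the C-type peptide that Npr2 binds, had no count in 12 of the 14 libraries, 2 counts in knockout sham 1 and 1 in wild-type TAC 1, and was not tested. Between genotypes none of the 22 pathway genes was called by edgeR. In sham hearts 8 of the 22 had an unadjusted p under 0.05, beside 18% of all genes tested. DESeq2 called Pcsk6 and Vasp there, among 320 genes higher and 268 lower of 29789. After TAC 4 of the 22 had an unadjusted p under 0.05, beside 14.8% of all genes. DESeq2 called Pcsk5 there, among 182 genes higher and 290 lower of 29789. In the interaction there was 1, Mme, beside 6.53% of all genes, and DESeq2 called none.

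Of 17 transcription factors known to act on the Nppa and Nppb genes, 2 rose and 2 fell after TAC in wild type, and 1 rose and 1 fell in knockout hearts, beside 12.2% and 13.0% of all genes called. Tbx20 rose from 146 ± 6.49 to 202 ± 13.7 CPM (log2 0.47, adjusted p = 0.00130) and Nfatc4 from 9.48 ± 0.84 to 13.2 ± 1.91 CPM (0.48, adjusted p = 0.0434). Tbx5 fell from 30.7 ± 2.39 to 15.6 ± 1.75 CPM (−0.98, adjusted p = 0.0288) and Mef2a from 276 ± 34.0 to 214 ± 9.26 CPM (−0.37, adjusted p = 0.0260). In knockout hearts Srf rose from 126 ± 15.0 to 161 ± 8.34 CPM (0.35, adjusted p = 0.0359) and Mef2a fell from 322 ± 21.5 to 252 ± 6.33 CPM (−0.35, adjusted p = 0.0136). The median over the list was −0.14 in wild type and −0.05 in knockout hearts.

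Gata4 and Nkx2-5, whose factors bind the motifs named above, had log2 differences of 0.14 and 0.09 after TAC in wild type and of 0.07 and 0.12 in knockout hearts, and neither passed. Without wild-type TAC 1, Tbx20 had a difference of 0.40 (adjusted p = 0.0448), whereas Tbx5 (−0.87, 0.242), Mef2a (−0.41, 0.119) and Nfatc4 (0.62, 0.0766) did not pass. Nfatc4 was called in 4, Mef2a in 6 and Tbx5 in 8 of 14 alternative fits in wild type. Besides wild-type TAC 1, the calls were lost without wild-type TAC 2 (all 3 genes), sham 3 (all 3), sham 2 (Mef2a and Nfatc4) or sham 1 (Nfatc4). In knockout hearts Mef2a was called in 13 of 16 and was lost without knockout sham 2. Srf was called in 6 of 16 and was lost without any 1 of the knockout TAC libraries and without knockout sham 1, 2 or 3, with adjusted p up to 0.264 over all alternatives. With coding counts only the Tbx20 difference was 0.23 and was not called (adjusted p = 0.659). None of the 17 was called between genotypes by edgeR. At an unadjusted p under 0.05 there were 2 in sham hearts, 6 after TAC and 1 in the interaction, beside 18%, 14.8% and 6.53% of all genes. DESeq2 called 1, Nfatc4 after TAC, where it called 182 genes higher and 290 lower of 29789.

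**Figure D5:**
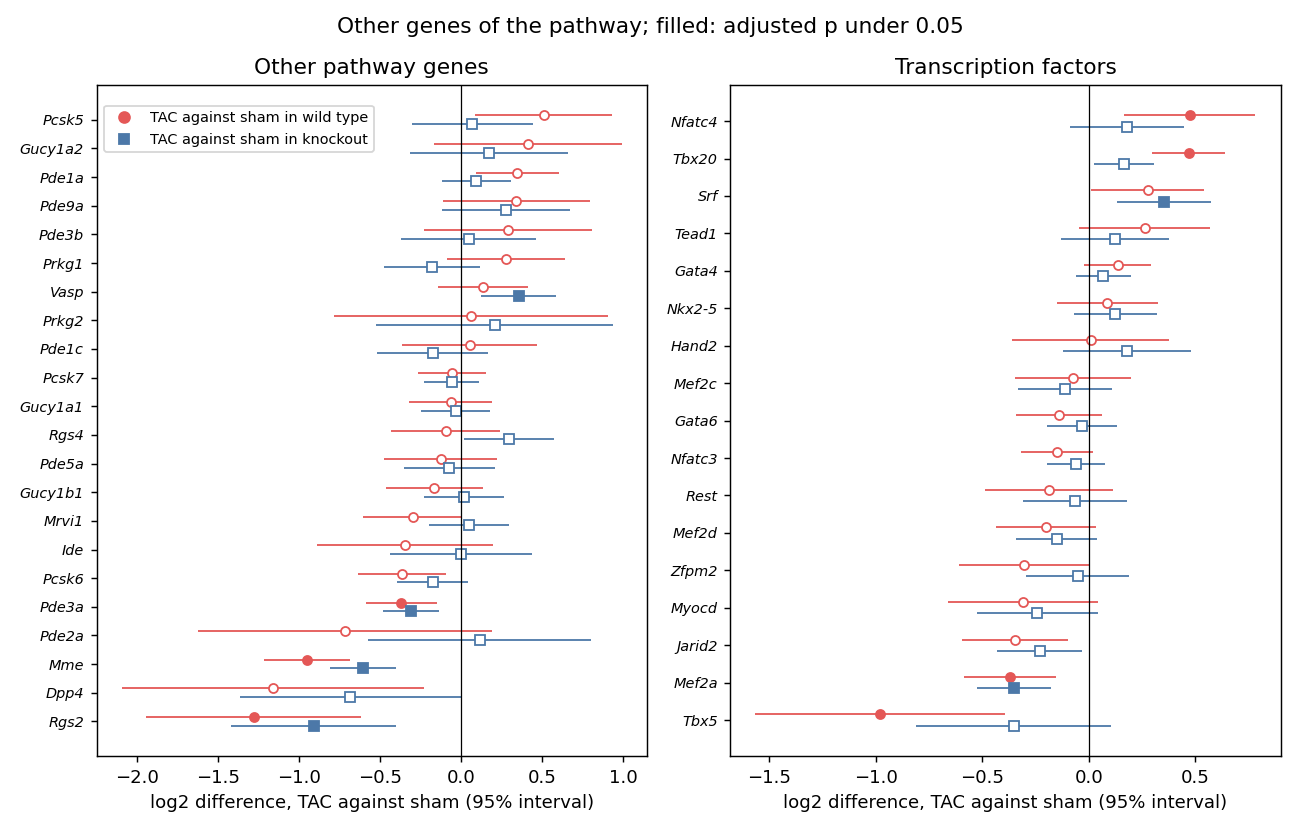
Log2 difference of TAC against sham with its 95% interval for 22 other pathway genes (left) and 17 transcription factors (right), in wild type (red circles) and knockout hearts (blue squares), with filled symbols where the adjusted p is under 0.05. Mme, Rgs2 and Pde3a on the left and Mef2a on the right are lower after TAC in both genotypes.

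The genes around the peptide pair were examined for shared change. Besides Nppa and Nppb, 7 named genes have part of their body within 100 kb of either, and 6 could be tested. After TAC in wild type none was called by edgeR or DESeq2, and 2 had an unadjusted p under 0.05, beside 26.1% of all genes. In knockout hearts Plod1, a collagen lysyl hydroxylase gene, rose from 119 ± 5.51 to 150 ± 4.94 CPM (log2 0.33, adjusted p = 0.0270). Its call was lost in 8 of 16 alternative fits. The median over these neighbours was 0.12 in wild type and −0.01 in knockout hearts, beside 3.51 and 2.25 for Nppa itself.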

How the data were processed

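The deposited values are raw counts of reads per gene, with coding, untranslated and ambiguous parts in columns of their own, per the file headers. Libraries were poly(A)-selected and strand-specific, per the labels' protocols. Per the submitters' processing notes, STAR 2.4.2a, Picard 2.10.3 and bcl2fastq 2.17.1.14 were used, with the builds mm10 and GRCm38. The counter's version, its annotation and its strand setting were not given in the sources used here. Symbols and positions came from GENCODE M21 (GRCm38). Reads in no feature (10.7% to 19.0% of a library) and ambiguous reads were left out.

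Genes were filtered with filterByExpr (minimum count 10), scaled by TMM and tested by quasi-likelihood in edgeR 4.0.16 (R 4.3.3), with all 14 libraries in 1 fit, 1 coefficient per group, and Benjamini-Hochberg adjustment over 15651 genes (threshold 0.05). The biological coefficient of variation was 11.8%. Levels are CPM on TMM-scaled libraries as mean ± SD. For ratios, exact two-sided permutation tests were used. Likeness used log2 CPM with a prior count of 2. The main fit was also run on simulated counts in which genes were changed in knockout TAC only. Only the knockout TAC comparison was read from it, and its outcome is not reported here. That simulation did not address the wild-type TAC group or fits with libraries left out. Alternatives were DESeq2 1.42.0, RLE factors, no filter, age as a covariate, 10-week libraries, coding counts, only the groups compared, and libraries left out. The members and lists were chosen with earlier results of these data known. Named genes were all members, list genes past the threshold (at most 4 per list and comparison), Nppc, Clk3 and the 5 genes most like each member; Gm8730, Gm13054, marker genes and list genes named at an unadjusted p were added to these. Some items that this rule names are not reported here.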

Additional observations from a re-analysis of the deposited data

Results flagged for a closer look

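In 21 groups of 4 libraries, 7 genes in 3 groups, the highest or lowest value was set against the range of its group, and 2 groups had a library that stood apart. Chance alone gives about 1 in 20. Npr1 was at 49.5 CPM in knockout sham 4, and the other 3 libraries of that group lay between 38.8 and 40.2 CPM. Npr3 was at 41.4 CPM in knockout TAC 3, against 17.6 to 19.7 CPM in the other 3. Without knockout sham 4 and knockout TAC 3 together, neither receptor was called in any comparison.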

How the results depend on the processing

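No paired analysis was possible because the replicate numbers used here were given in accession order within groups, not by the labels. With 10-week libraries only, 1 member (Nppa) was called after TAC in knockout hearts in place of 3. That fit called 10 genes higher and 5 lower of 15391. Between genotypes after TAC 0 were called in place of 1 with 10-week libraries only and 0 with only the groups compared. Over all genes these fits called 22 higher and 98 lower of 15391, and 6 higher and 54 lower of 14899. With no filter on low counts 1 (Nppa) was called in the interaction in place of 0. That fit called 13 genes higher and 53 lower of 29798 in the interaction, against 0 and 3 of 15651 in the main fit. Leaving out 1 library gave 2 to 3 called after TAC in either genotype, 0 in sham hearts and the interaction, and 0 to 1 between genotypes after TAC. Without 1 of its own libraries, the knockout TAC comparison called 431 to 1073 of all genes higher and 366 to 1007 lower. Some uncalled values changed sign. Not all of them lay near 0 in the main fit, where Npr3 was at −0.34 after TAC in wild type. With 10-week libraries only, the Npr1 to Npr3 log2 ratio differed by −0.39 after TAC in knockout hearts and by 0.49 between genotypes in sham hearts, and Nppa in sham hearts by −0.21. After TAC in knockout hearts, Npr2 was at 0.0047 with no filter and 0.035 with 10-week libraries, and Npr3 at 0.26 with age as a covariate and 0.55 with 10-week libraries. Without knockout sham 4 and knockout TAC 3, values between genotypes after TAC were 0.0093 for Npr1 and −0.38 for Npr3, and in the interaction −0.25 for Npr3 and −0.11 for Corin. Leaving out 1 library at a time, log2 differences after TAC in wild type ran from −0.24 to 0.16 for Npr1, −0.28 to 0.014 for Npr2 and −0.97 to 0.11 for Npr3. In knockout hearts they ran from −0.038 to 0.018 for Npr2 and −0.49 to 0.18 for Npr3. Between genotypes in sham hearts they ran from −0.042 to 0.28 for Nppa and −0.55 to 0.21 for Npr3. After TAC they ran from −0.26 to 0.14 for Npr1, −0.27 to 0.022 for Npr2, −0.42 to 0.66 for Npr3 and −0.0035 to 0.44 for Corin. In the interaction they ran from −0.012 to 0.38 for Npr1, −0.023 to 0.27 for Npr2, −0.19 to 0.89 for Npr3 and −0.16 to 0.29 for Corin. The log2 ratio of Nppa to Nppb between genotypes in sham hearts ran from −0.29 to 0.27. That of Npr1 to Npr3 ran from −0.68 to 0.80 after TAC in wild type, −0.042 to 0.61 after TAC in knockout hearts, −0.73 to 0.32 between genotypes in sham hearts and −0.81 to 0.67 after TAC. The cause of these changes was not tested. Only 2 wild-type TAC libraries were compared, of which 1 stands with the knockouts for Clk3 and Gm8730.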

Other observations

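The members with small changes had close neighbours in pattern over the 14 libraries, given as root mean square differences of centred log2 CPM. Those of Npr1 were Myadm (0.067), Plcb3 (0.069), Caskin2 (0.069), Pxn (0.073) and Tie1 (0.078), where Npr1 had a spread of 0.20. Tie1 encodes an endothelial receptor. Those of Corin were Fgf13 (0.10), Cldn12 (0.10), Fam174b (0.11), Paqr9 (0.11) and Neo1 (0.11), where Corin had a spread of 0.28. Those of Npr2 were Josd2 (0.055), Cuedc1 (0.064), Grk6 (0.067), B4galt3 (0.071) and Sart3 (0.071), and those of Furin were Polg (0.060), Eif4ebp2 (0.061), Fbxo42 (0.061), Phf2 (0.064) and Bcor (0.066). Npr2 and Furin had spreads of 0.15 and 0.14.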
